A study of Homo sapiens with 47 samples.

Results

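The type I interferon gene cluster on the short arm of chromosome 9 was described in 2 human melanoma cell lines, 451Lu and WM983B, through the chromatin features listed in an interval of 450 kb (hg19, chromosome 9, positions 21050001 to 21500000). The features were selected on position alone: every deposited H3K9me3 island, ATAC-seq peak, H3K27ac peak and RRR interval that overlapped this window by at least 1 bp was taken, while the window itself was chosen with earlier results of these data known. That gave 32 H3K9me3 islands of 478961 in the series, 348 ATAC-seq peaks of 1654632, 7 H3K27ac peaks of 170372 and 1 RRR interval of 1848. The 10 genes named as members were IFNB1, IFNW1, IFNA21, IFNA4, IFNA7, IFNA10, IFNA5, IFNA2, IFNA1 and IFNE. Since the same values chose the window, its H3K9me3, ATAC-seq, H3K27ac and RRR values are given as a description, with no test. With 2 libraries against 2, an exact two-sided permutation test could not go below p = 0.333 in any case.

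The resistant groups were 451Lu or WM983B cells made resistant to vemurafenib, an inhibitor of the kinase BRAF, and each was set against the parental cells of its own line. The engineered groups were all 451Lu. The shp150_AP1 cells over-expressed c-JUN and c-FOS, components of the transcription factor AP-1, and carried an shRNA against p150, and their control, vector_NT, carried the vector and the NT control. The deposited H3K9me3 lists of the vector_NT group are themselves named for the NT control alone, so the control cells behind the H3K9me3 comparison rest on the labels. The AP1 cells over-expressed c-JUN and c-FOS alone and were set against vector cells, and the shp150 cells carried the shRNA alone and were set against NT cells. Some deposited lists of WM983B and of the vector cells also carry names that differ from the labels, and all groups here follow the labels. The sources used here give neither drug dose nor time under drug, nor the number of clones, nor the promoters that drive the engineered genes. H3K9me3 had 2 libraries in each of 4 groups of 451Lu, ATAC-seq had 2 libraries in each of 10 groups, and H3K27ac was used from 1 library for each of its 4 groups, while 4 further H3K27ac samples in the labels were not analysed here. The labels number the replicates but do not tie them to separate cultures, so their spread may be technical.

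Type I interferons are secreted proteins that bind one shared receptor, switch on antiviral and growth-restraining genes, and are induced when cells sense foreign nucleic acid. IFNB1 encodes interferon beta, which many cell types make first after such a signal, the IFNA genes encode a family of closely related interferon alpha proteins, IFNW1 encodes interferon omega, and IFNE encodes interferon epsilon, which is known from epithelium of the reproductive tract. These genes have no introns and are silent in most unstimulated cells. H3K9me3 is a histone mark of heterochromatin, H3K27ac marks active promoters and enhancers, and ATAC-seq peaks mark open chromatin where the transposase Tn5 can cut. In RefSeq (GRCh38.p14) the stretch from IFNB1 to IFNE holds 30 annotated genes and pseudogenes, among them 16 protein-coding interferon genes, 13 of which are IFNA genes, and KLHL9, a ubiquitin ligase adaptor. No annotation of hg19 was used here, so no single island or peak below is given to a gene, and no level of any interferon transcript was analysed here.

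Some of the IFNA promoters are close copies of each other, while those of IFNB1 and IFNE stand apart. The RefSeq (GRCh38.p14) promoter sequences used here covered 9 of the 10 members and lacked IFNW1. Over the 250 bases before the gene start, the 21 pairs of IFNA promoters had an identity of 60.6% to 94.1%, with a median of 69.8%, and the 15 pairs that include IFNB1 or IFNE had 45.8% to 55.2%. IFNA10 and IFNA21 were the most alike pair at 94.1%, and IFNA7 and IFNA10 shared the longest identical run, 122 bases. The sources used here do not say how reads with several equally good positions were treated, and the part of such copies in the values below was not tested. Below are the promoter of IFNB1, the gene known best for its dense enhancer, the most alike IFNA pair, and IFNE for contrast, each on the minus strand of GRCh38.p14 and written 5′ to 3′. Capitals mark matches, on both strands, to 4 short motifs: AANNGAAA, a core that interferon regulatory factors bind, GGAANTTCC, of the NF-kB type, TGANTCA, of the AP-1 type, and TGACATAG, of the ATF type.
IFNB1, chr9:21077943-21078192: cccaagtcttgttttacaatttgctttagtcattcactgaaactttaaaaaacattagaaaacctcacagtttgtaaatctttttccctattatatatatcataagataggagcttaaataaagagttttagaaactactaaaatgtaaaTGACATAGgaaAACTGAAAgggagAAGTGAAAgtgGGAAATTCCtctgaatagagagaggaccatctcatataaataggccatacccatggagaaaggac
IFNA10, chr9:21207144-21207393: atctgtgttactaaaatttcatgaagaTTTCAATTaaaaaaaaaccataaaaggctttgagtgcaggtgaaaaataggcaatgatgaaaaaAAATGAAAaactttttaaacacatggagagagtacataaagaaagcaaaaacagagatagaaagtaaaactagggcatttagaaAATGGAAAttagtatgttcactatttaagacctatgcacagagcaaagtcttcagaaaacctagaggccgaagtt
IFNA21, chr9:21166661-21166910: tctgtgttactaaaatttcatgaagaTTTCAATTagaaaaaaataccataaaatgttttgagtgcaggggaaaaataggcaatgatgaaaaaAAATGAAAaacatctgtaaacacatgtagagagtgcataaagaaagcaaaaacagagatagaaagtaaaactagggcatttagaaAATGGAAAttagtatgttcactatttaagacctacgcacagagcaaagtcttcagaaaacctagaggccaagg
IFNE, chr9:21482314-21482563: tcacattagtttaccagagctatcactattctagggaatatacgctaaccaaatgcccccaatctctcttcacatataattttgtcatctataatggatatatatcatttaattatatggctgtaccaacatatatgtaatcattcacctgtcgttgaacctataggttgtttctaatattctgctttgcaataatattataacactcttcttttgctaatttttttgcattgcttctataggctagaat

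The IFNB1 promoter held 2 matches to AANNGAAA, 1 to GGAANTTCC and 1 to TGACATAG, side by side. Those motifs occurred in 20.3%, 0.826% and 0.379% of the 35116 promoters of the same length in the table. The motifs were chosen with the IFNB1 enhancer known, so its matches are marked for the reader and are not a result. IFNA21, IFNA4, IFNA7 and IFNA10 each held 3 matches to AANNGAAA, IFNA5 and IFNA1 each held 2, and IFNA2 and IFNE held 0. TGANTCA occurred in 6.57% of all promoters and in 0 of these 9. A match is only a string of letters, and its absence from this stretch says nothing of the factor. No conversion between builds was made, so these GRCh38 positions were not set against the hg19 positions that follow.

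Nearly all H3K9me3 islands of the window were missing from the lists of resistant and shp150_AP1 cells and present in those of parental and vector_NT cells. Resistant cells had 0 islands in replicate 1 and 1 in replicate 2, against 5 and 6 in parental cells. The shp150_AP1 cells had 3 islands in replicate 1 and 0 in replicate 2, against 11 and 6 in vector_NT cells. Islands covered 0.267 ± 0.377% of the window in resistant cells and 7.20 ± 0.314% in parental cells (SD, n = 2 each), a difference of -6.93 percentage points. They covered 0.533 ± 0.754% in shp150_AP1 cells and 8.44 ± 0.44% in vector_NT cells (SD, n = 2 each), a difference of -7.91 percentage points. In neither comparison did the libraries of the 2 groups overlap, which was also so, in the same direction, in 63.1% of stretches of this length for resistant against parental cells and in 66.2% for shp150_AP1 against vector_NT cells, counting stretches with an island in any of the 4 libraries compared.

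**Figure D1:**
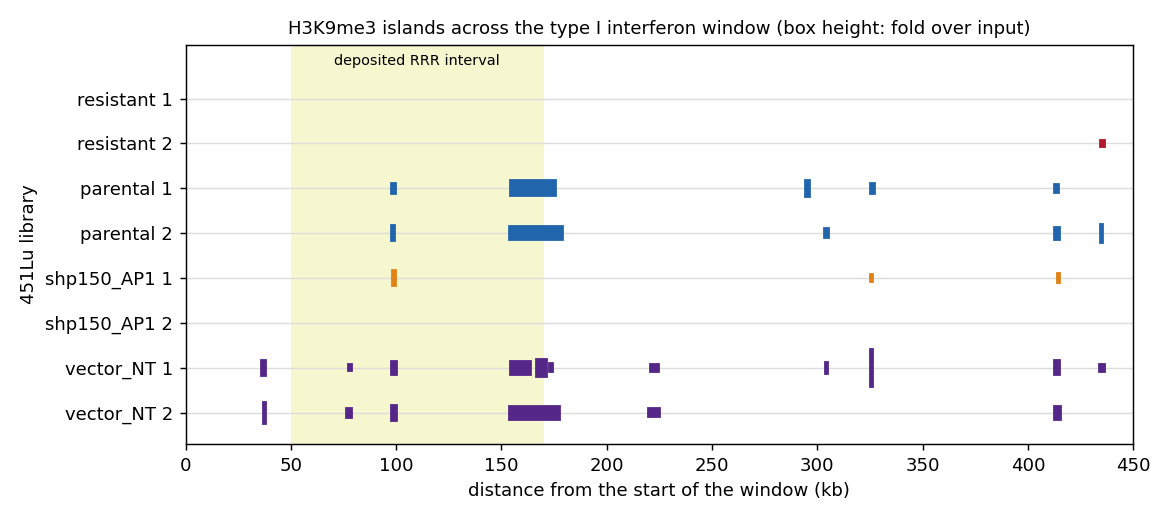
H3K9me3 islands of the window in the 8 libraries of 451Lu, 1 row per library, against the distance from the window's start in kb. Each box is 1 island, its width is the island's length and its height the authors' fold of ChIP over input, and the shaded band is the deposited RRR interval. The broad island near 165 kb is present in all 4 parental and vector_NT libraries and in none of the 4 resistant and shp150_AP1 libraries.

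Most of that length came from 1 broad region, which ran from 21203801 to 21229200 (hg19, 25.4 kb, all 8 lists merged). It was listed in 0 of 2 resistant libraries and in 2 of 2 parental libraries, and in 0 of 2 shp150_AP1 libraries and in 2 of 2 vector_NT libraries. In parental replicate 1 it was a single island of 21.8 kb with 1010 ChIP reads, 367 input reads and a fold of 4.0. Parental replicate 2 had it as 2 islands that together held 1363 ChIP reads and 513 input reads, a fold of 3.57. Vector_NT replicate 2 had it as 1 island of 24 kb with 1170 ChIP reads, 396 input reads and a fold of 3.51. Vector_NT replicate 1, the library with the most ChIP reads inside listed islands, had it as 3 islands with 1250 ChIP reads and 274 input reads, a fold of 3.61. So the 4 libraries that list the region place it alike and within a narrow range of folds, 3.51 to 4.0.

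The other 9 merged regions of the window were short, from 2.2 to 5.6 kb. The pair at 21147401 to 21150200 and at 21462401 to 21465600 was listed in all 4 parental and vector_NT libraries, in shp150_AP1 replicate 1 and in no resistant library. At the first of these, shp150_AP1 replicate 1 had 84 ChIP reads and a fold of 3.84, against folds of 3.54 and 4.06 in the vector_NT libraries, so its fold lay between those of the controls. At the second it had 56 ChIP reads and a fold of 2.56, against folds of 3.72 and 3.41 in the vector_NT libraries, below both. A further 3 regions, the longest of them 5.6 kb at 21269601 to 21275200, were listed in both vector_NT libraries and in no parental, resistant or shp150_AP1 library. The single island of resistant cells, at 21484201 to 21486600 in replicate 2, had 93 ChIP reads, 72 input reads and a fold of 1.90. Parental replicate 2 had 83 ChIP reads, 24 input reads and a fold of 4.64 at the same place, and parental replicate 1 listed no island there. Vector_NT replicate 1 had 159 ChIP reads, 65 input reads and a fold of 1.94 there, and vector_NT replicate 2 listed no island.

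A region is called lost here when both control libraries list it and neither library of the other group does, and gained in the reverse case. Merging the 4 libraries of each comparison, 3 of 7 window regions were lost and 0 gained in resistant against parental cells, and 4 of 9 were lost and 0 gained in shp150_AP1 against vector_NT cells. Across the genome 17.7% of regions were lost and 3.06% gained in resistant cells, and 13.8% were lost and 1.87% gained in shp150_AP1 cells, so lost islands were common across the genome in both comparisons. The share lost was smaller among broad regions, with a cut-off of 10 kb chosen with earlier results known. Of regions of at least 10 kb listed in both control libraries, 3.15% were lost in resistant cells and 1.77% in shp150_AP1 cells, and the window's 1 region of that length was lost in both.

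The genome was also divided into tiles of 450 kb on the grid that holds the window, and the shares below are over tiles with an island in any of the 4 libraries compared, 6122 for resistant against parental cells and 6187 for shp150_AP1 against vector_NT cells. Covered share was lower in both resistant libraries than in both parental libraries in 63.1% of tiles, and lower in both shp150_AP1 libraries than in both vector_NT libraries in 66.2% of tiles, so the window's direction was that of most tiles. How usual its size was depends on cut-offs, which were chosen with earlier results of these data known. Of tiles with at least 5% covered in both control libraries, 6.33% were below 2% in both resistant libraries and 1.5% in both shp150_AP1 libraries, as the window was. Those tiles had no upper limit of coverage, so tiles covered more than the window are among them. The median tile difference was -1.87 percentage points for resistant minus parental cells and -2.24 for shp150_AP1 minus vector_NT cells. Set against the mean over all tiles, the window's covered share was 0.0293 of it in resistant cells and 0.66 of it in parental cells, and 0.0554 of it in shp150_AP1 cells and 0.663 of it in vector_NT cells.

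Neighbouring chromatin had lower coverage too. In the 1 Mb after the window, islands covered 5.94% and 6.4% in resistant cells, against 15.2% in both parental libraries, and 6.2% and 9.58% in shp150_AP1 cells, against 17.4% and 15.6% in vector_NT cells. In the 1 Mb before it, they covered 0.16% and 0.92% in resistant cells, against 2.66% and 1.62% in parental cells. Over the tiles of the short arm the mean covered share was 1.39 ± 0.051% in resistant cells and 3.72 ± 0.164% in parental cells, and 2.15 ± 0.227% in shp150_AP1 cells and 4.59 ± 0.0497% in vector_NT cells (SD, n = 2 each). Coverage on both sides and along the arm was thus lower in the same direction, while islands remained in the 1 Mb after the window in all 8 libraries.

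**Figure D2:**
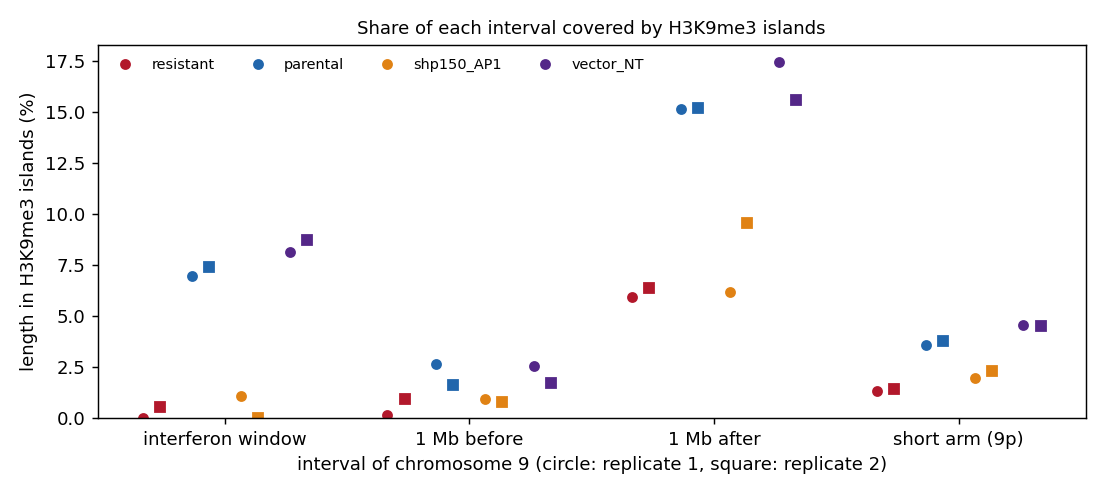
Share of length covered by H3K9me3 islands, in percent, for the interferon window, the 1 Mb on either side and the short arm of chromosome 9. Each point is 1 library of 451Lu (circle, replicate 1; square, replicate 2), and in all 4 intervals the resistant libraries lie below the parental and the shp150_AP1 libraries below the vector_NT ones.

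The libraries differed in depth. The ChIP reads inside all listed islands numbered 14820360 and 13222196 in resistant cells against 15722441 and 18296612 in parental cells, and 11504516 and 14859453 in shp150_AP1 cells against 31117459 and 21784204 in vector_NT cells. Total depth is unknown, since the files hold only reads within islands. If the broad region had kept the mean fold and the mean relative input density of its control libraries, it would have held 66.6 and 59.5 ChIP reads per kb in the resistant libraries and 40.1 and 47.3 in the shp150_AP1 libraries. The lowest density among their listed islands of at least 10 kb was 30.8 and 29.9 reads per kb in the resistant libraries and 27.7 and 26.9 in the shp150_AP1 libraries. At 50% of that input density the values would be 33.3 and 29.8 in the resistant libraries, close to the lowest listed density, and 20.1 and 23.6 in the shp150_AP1 libraries, below it. These values assume the fold and input of the control libraries, and folds over shared regions in the 1 Mb after the window were lower in resistant and shp150_AP1 cells, as given below. A missing island is thus not a measured level of 0, and the part of depth in its absence was not tested.

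Input reads inside islands bear on DNA copy, because input is sheared DNA taken without an antibody. In each library they were divided by the median input density, in reads per kb, over all islands of chromosomes 1 to 22. That median was 35.5 in both resistant libraries, against 28.6 and 29.3 in parental cells. For shp150_AP1 cells it was 31.5 and 32, against 25.5 and 27.1 in vector_NT cells. Each library's median comes from its own islands, and the part of this in differences of scaled input was not tested. Within the window the scaled input was 0.845 in resistant replicate 2 (95% exact Poisson interval 0.661 to 1.06), against 0.649 (0.597 to 0.704) and 0.707 (0.656 to 0.762) in parental cells. It was 0.859 (0.717 to 1.02) in shp150_AP1 replicate 1, against 0.68 (0.628 to 0.735) and 0.661 (0.613 to 0.711) in vector_NT cells. Resistant replicate 1 and shp150_AP1 replicate 2 list no island in the window and so have no value. The intervals cover counting error only, and the resistant value rests on a single island of 2.4 kb with 72 input reads. The islands behind these values differ between groups, and input was not counted at the broad region in resistant or shp150_AP1 cells. With the window widened by 50 kb on each side, the log2 ratio of input density in shp150_AP1 over vector_NT cells was 0.057, against 0.36 for the window itself.

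The fold of ChIP over input, taken over all islands of the window, was 1.90 in resistant replicate 2, against 3.52 and 3.51 in parental cells. It was 2.66 in shp150_AP1 replicate 1, against 3.15 and 3.29 in vector_NT cells. The lower folds belong to short islands and not to the broad region, so the same sequence is not compared. At the 1 region listed in all 4 parental and resistant libraries in the 1 Mb before the window, the scaled input was 0.791 and 0.563 in resistant cells, against 0.725 and 0.734 in parental cells. The fold there was 3.03 and 4.48 in resistant cells, with 45 and 20 input reads, against 2.78 and 3.07 in parental cells. The islands behind it spanned 1.6 and 1 kb in resistant cells, against 7 and 7.2 kb in parental cells. Over the 9 regions listed in all 4 libraries in the 1 Mb after the window, scaled input was 0.77 (0.731 to 0.811) and 0.732 (0.693 to 0.772) in resistant cells, against 0.788 (0.751 to 0.826) and 0.83 (0.793 to 0.868) in parental cells. The fold over those 9 regions was 2.23 and 2.40 in resistant cells, against 3.33 and 3.17 in parental cells. The islands of those 9 regions spanned 52.2 and 52 kb in resistant cells, against 77.8 and 78.6 kb in parental cells. ChIP over input in listed islands was thus lower in resistant cells after the window and not lower in the 1 region before it. The groups were compared over different lengths of island in each case. Across all islands of each library, the median fold was 1.69 and 1.83 in resistant cells, against 2.17 and 2.2 in parental cells. It was 2.12 and 1.96 in shp150_AP1 cells, against 2.13 and 2.21 in vector_NT cells. Lower folds in resistant cells were thus not confined to the window and the 1 Mb after it. The part of this in the folds given here was not tested.

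Over the 7 regions that all 4 engineered libraries list in the 1 Mb after the window, scaled input was 0.783 (0.738 to 0.829) and 0.733 (0.699 to 0.769) in shp150_AP1 cells, against 0.783 (0.748 to 0.82) and 0.824 (0.788 to 0.862) in vector_NT cells. Their fold was 2.5 and 2.56 in shp150_AP1 cells, against 3.37 and 3.4 in vector_NT cells. Over the 3 regions that these libraries share in the 1 Mb before the window, scaled input was 0.505 (0.412 to 0.613) and 0.636 (0.544 to 0.741) in shp150_AP1 cells, against 0.663 (0.567 to 0.771) and 0.725 (0.635 to 0.825) in vector_NT cells. The fold over those 3 regions was 5.11 and 3.4 in shp150_AP1 cells, against 4.29 and 3.79 in vector_NT cells, so the groups overlapped in fold. On either side of the window the islands of these shared regions spanned less length in shp150_AP1 than in vector_NT cells. Along the whole short arm scaled input was 0.665 and 0.69 in resistant cells against 0.712 and 0.717 in parental cells, and 0.684 in both shp150_AP1 libraries against 0.722 and 0.718 in vector_NT cells. The input of the window thus sat near that of its arm in the control libraries. Which input library served for shp150_AP1 replicate 1 is not given in the sources used here.

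**Figure D3:**
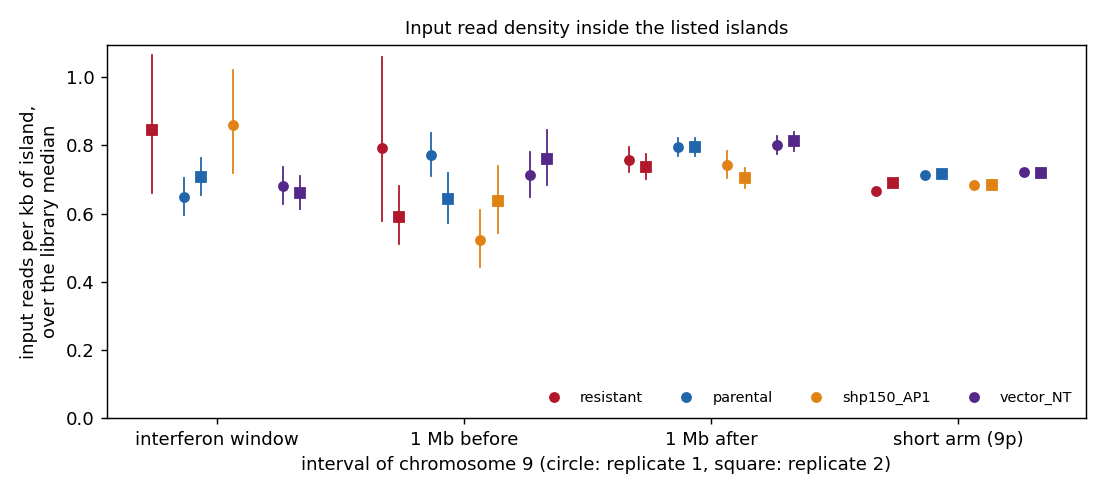
Input reads per kb inside listed H3K9me3 islands, divided by the library's median over all islands, for the same 4 intervals, with 95% exact Poisson intervals as bars. Each point is 1 library of 451Lu; resistant replicate 1 and shp150_AP1 replicate 2 have no point in the window because they list no island there.

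The 1 RRR interval of the window came from the authors' deposited table of 1848 intervals in 451Lu, which names neither the assay, nor the libraries, nor which group a positive value favours. In the authors' deposited table it ran from 21100000 to 21220000, with a mean normalized signal of 2053, a log2 fold change of -8.53 with a standard error of 0.399, and an adjusted p of 1.42e-98. That log2 fold change was the most negative of the authors' deposited table and ranked 5 by size without regard to sign, and its adjusted p also ranked 5. Of all intervals in the authors' deposited table, 41.2% had an adjusted p below 0.05 and a negative log2 fold change, and 33.2% had an adjusted p below 0.05 and a positive one. The nearest other entries of the authors' deposited table, at 19280000 and at 22120000, had log2 fold changes of -1.44 and -2.77.

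The meaning of the sign can only be described from the other lists. Among the 764 intervals of the authors' deposited table below -1 on the log2 scale, 14.9% held more H3K27ac peaks in resistant 451Lu cells and 57.3% held more in parental ones, counting lists of equal length. Among the 530 intervals above 1, 62.6% held more in resistant and 11.5% held more in parental cells. H3K9me3 coverage was lower in resistant cells in 72.6% of the intervals below -1 and in 54.9% of those above 1. The interferon interval itself held 0 H3K27ac peaks in either. Up to its printed end, H3K9me3 islands covered 0% of it in both resistant libraries, against 15.2% and 15.3% in parental cells, and 1.33% and 0% in shp150_AP1 cells, against 14.8% and 17.8% in vector_NT cells. Its printed end lies inside the broad H3K9me3 region. It also held 6 and 7 ATAC-seq peaks in resistant cells, against 7 and 8 in parental cells. A peak does not measure DNA copy number, and the part of copy number in the interval's value was not tested.

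The WM983B ATAC-seq lists paired by replicate number more closely than by group, which touches every WM983B value here. Over the genome, the length shared by 2 lists divided by the length in either was 0.578 and 0.609 between resistant and parental lists of the same number, against 0.509 between the 2 resistant lists and 0.51 between the 2 parental ones. In 451Lu it was 0.63 and 0.631 between resistant and parental lists of the same number, against 0.715 between resistant lists and 0.726 between parental ones. Within WM983B replicate 1, 11 window regions were listed in resistant cells only and 6 in parental cells only. Within replicate 2 the counts were 5 and 7, so the direction turned between replicates.

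The number of open sites in the window, taken from the whole lists, overlapped between resistant and parental cells in both lines. Resistant 451Lu cells had 19 and 21 ATAC-seq peaks, against 18 and 23 in parental cells. With lists of equal length the means were 15 in resistant and 20 in parental 451Lu cells, and the whole lists were longer in resistant cells, with 89922 and 94550 peaks against 82621 and 83203 in parental cells. Resistant WM983B cells had 33 and 29 peaks, against 28 and 31 in parental cells. The shp150_AP1 cells had 18 and 20 peaks, against 19 and 17 in vector_NT cells, and AP1 cells had 10 and 11 against 10 and 9 in vector cells. The ranges of the groups overlapped or touched in each of these 4 comparisons. The shp150 cells had 8 and 5 peaks, against 11 and 8 in NT cells, ranges that touch at 8, and the whole lists of shp150 cells were shorter as well, with 43913 and 42898 peaks against 55609 and 53419 in NT cells. With lists of equal length the difference turned to 0.5 for shp150 minus NT and to -1.5 for shp150_AP1 minus vector_NT.

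**Figure D4:**
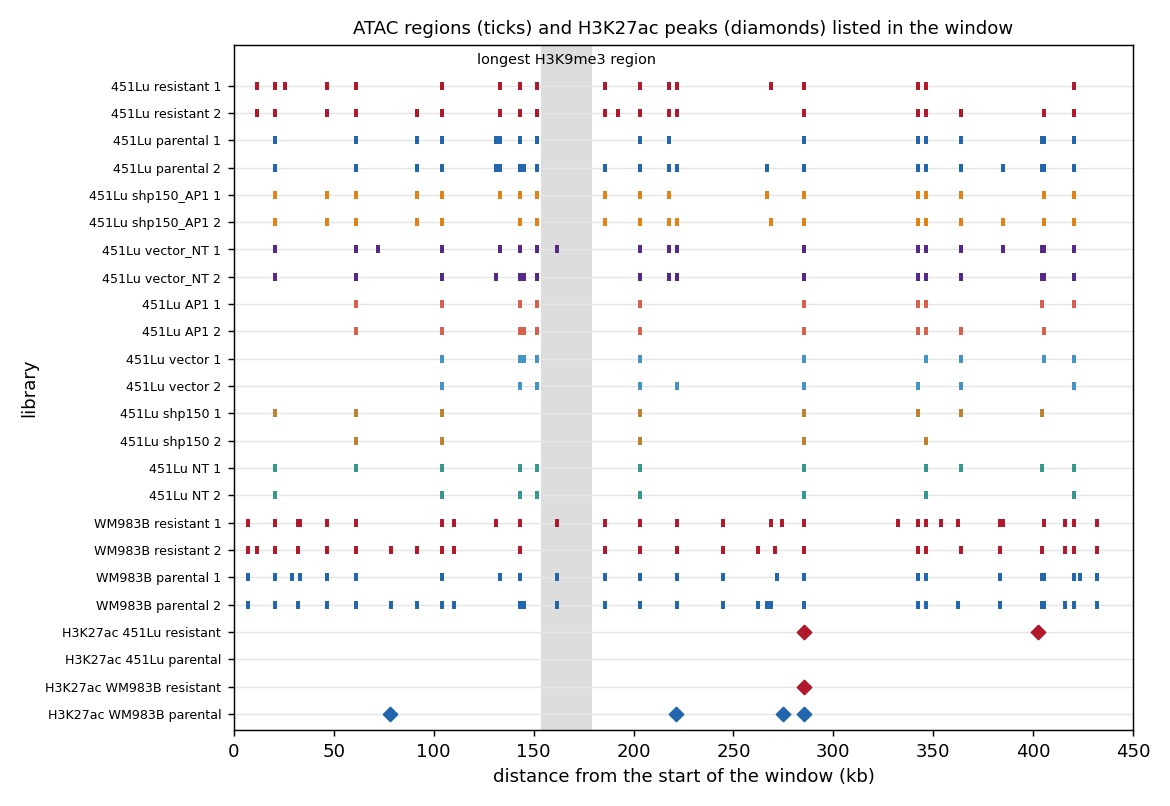
ATAC-seq regions (ticks) and H3K27ac peaks (diamonds) of the window, 1 row per library, against the distance from the window's start in kb; the grey band is the longest H3K9me3 region. The column of ticks and diamonds near 285 kb is the site open in all 20 ATAC-seq libraries that also carried H3K27ac in 3 of 4 libraries.

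Merged over all 20 libraries, the peaks formed 48 regions. Of these, 3 were listed in all 20 libraries, 24 were listed in both lines, 19 in WM983B only and 5 in 451Lu only, and 11 in a single library. The whole WM983B lists held 132326 and 144713 peaks in resistant cells and 129339 and 147988 in parental cells. Those of 451Lu were shorter, with 42898 to 94550 peaks. The part of list length in the counts by line was not tested. The 3 constant sites lay at 21153688 to 21154573, at 21252887 to 21253650 and at 21334709 to 21335692. The site at 21334709 was among the 3 best-scoring peaks of the window in 17 of 20 lists. There it scored 24.0 and 23.8 in resistant 451Lu cells, against 21 and 22.7 in parental cells, and 17.4 and 19.1 in resistant WM983B cells, against 11 and 18.6 in parental cells. Scores are the authors' own and rank peaks within a list, so they are not read as a difference between lists. Another 4 regions were listed in all 4 WM983B libraries and in no 451Lu library.

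**Figure D5:**
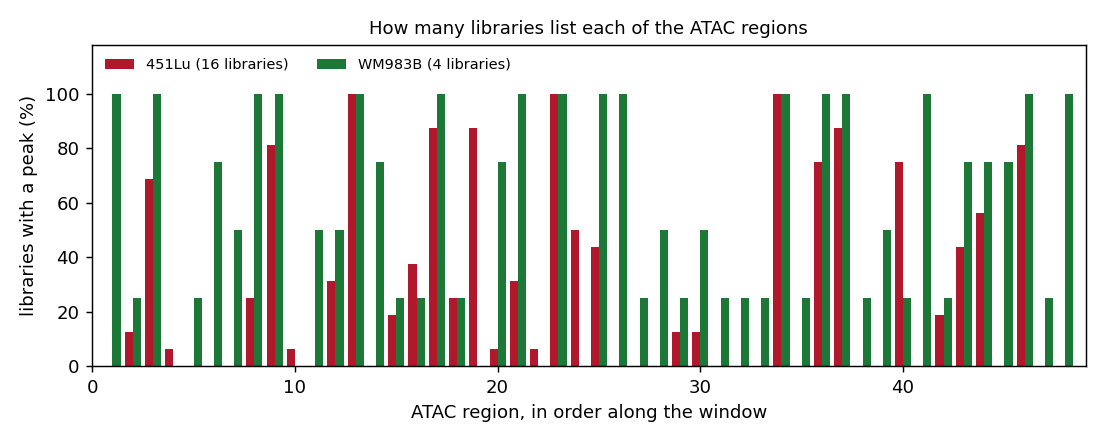
Share of the 16 libraries of 451Lu (red) and of the 4 libraries of WM983B (green) that list each of the 48 ATAC-seq regions, in percent, in order along the window. The regions 13, 23 and 34 reach 100% in both lines, and many low green bars mark regions listed in a single WM983B library.

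The broad H3K9me3 region showed no listed open site in the 451Lu cells that lacked its island. It held 0 ATAC-seq peaks in both resistant and in both parental 451Lu libraries. It held 0 in both shp150_AP1 libraries, against 1 and 0 in vector_NT cells. In WM983B, for which no H3K9me3 list was used here, it held 1 and 0 in resistant cells, against 1 and 1 in parental cells. Open sites stood close by on both sides. The one at 21201484 to 21202242, 1.56 kb before it, was listed in both resistant and both parental 451Lu libraries, in 14 of 16 libraries of 451Lu and in 0 of 4 of WM983B. Within their lists it ranked 10 of 19 and 15 of 21 window peaks in resistant cells, with scores of 5.81 and 5.53, and 3 of 18 and 4 of 23 in parental cells, with scores of 16.7 and 19.5. In shp150_AP1 cells it ranked 6 of 18 and 9 of 20, and in vector_NT cells 4 of 19 and 1 of 17. The next one, at 21235658 to 21236207, 6.46 kb after the region, was listed in 2 of 2 resistant and 1 of 2 parental libraries, and in 2 of 2 shp150_AP1 and 0 of 2 vector_NT libraries. Neither site measures copy number within the broad region.

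Each comparison had 0 to 3 window sites gained and 0 to 3 lost. As shares of the window's regions, some of these counts lay above the genome's share and others below it. In resistant against parental 451Lu cells, 2 of 28 window regions were gained and 3 lost, with 9.79% gained and 3.96% lost over the genome. The gained sites lay at 21061114 to 21061561 and at 21096161 to 21096807. The lost sites were at 21180914, 21413161 and 21454138. Around the second of these, at 21413161 to 21414015, each parental library listed 2 peaks and resistant replicate 2 listed 1. That peak did not overlap the lost site but overlapped a parental replicate 2 peak beside it. In WM983B, 0 of 45 regions were gained and 0 lost, with 1.47% gained and 1.22% lost over the genome. In shp150_AP1 against vector_NT cells, 3 of 27 were gained and 1 lost, with 5.19% and 3.26% over the genome. In AP1 against vector cells, 1 of 14 was gained and 0 lost, with 1.6% and 2.86% over the genome, and in shp150 against NT cells 0 of 12 were gained and 3 lost, with 0.747% and 7.51% over the genome.

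A pair of sites, singled out after their values were seen, had the same calls in the resistant and in the shp150_AP1 comparison, which do not share libraries. Merged over the 8 libraries of both comparisons, 1 of 29 window regions was gained in both and 1 lost in both, against 1.41% gained in both and 0.658% lost in both of 125894 regions over the genome. The site at 21096161 was listed in 2 of 2 resistant and 0 of 2 parental 451Lu libraries, and in 2 of 2 shp150_AP1 and 0 of 2 vector_NT libraries. It was listed in 0 of 8 libraries of the AP1, vector, shp150 and NT cells, whose lists are shorter, and in all 4 libraries of WM983B, resistant and parental alike. The site at 21454138 went the other way, in 0 of 2 resistant and 2 of 2 parental libraries, and in 0 of 2 shp150_AP1 and 2 of 2 vector_NT libraries. In parental cells it scored 11.1 and 7.98 and ranked 9 of 18 and 12 of 23, and in vector_NT cells it scored 4.72 and 4.62 and ranked 16 of 19 and 16 of 17. It was also listed in 1 of 2 libraries each of the AP1, shp150 and NT cells, in 0 of 2 of the vector cells and in 3 of 4 libraries of WM983B. The sites lost in shp150 against NT cells, at 21192927, 21201845 and 21470154, were listed in both shp150_AP1 libraries.

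H3K27ac was sparse across the cluster. Resistant 451Lu cells had 2 peaks in the window, against 0 in parental cells, and resistant WM983B cells had 1, against 4 in parental cells, with 1 library each and no replicate check. The whole lists held 51710 peaks in resistant and 32304 in parental 451Lu cells, and 36022 in resistant and 50336 in parental WM983B cells, so the longer list had more window peaks in both lines. One place recurred. It lay at 21334807 to 21335395 with a score of 9.61 in resistant 451Lu cells, at 21334936 to 21335459 with a score of 5.29 in resistant WM983B cells, and at 21334993 to 21335375 with a score of 2.86 in parental WM983B cells. It falls within the ATAC-seq site that all 20 libraries listed. The highest-scoring H3K27ac peak of the window, 11.6, was in parental WM983B cells at 21270837 to 21271599, where 4 of 20 ATAC-seq libraries had an overlapping peak. No H3K27ac peak fell in the broad H3K9me3 region in any of the 4 libraries.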

How the data were processed

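Used here were 20 ATAC-seq, 8 H3K9me3 and 4 H3K27ac libraries of the series' 47 samples and 1 table of intervals; the other samples, RNA among them, were not analysed here. The build hg19 and the tools SICER, MACS2, Bowtie2, deepTools, Picard and STAR (version 2.5.3) appear without a role in the submitters' processing notes. The sources used here are silent on duplicate removal, on reads with several positions and on any Tn5 shift. The deposited H3K9me3 lists hold, per island and library, counts of ChIP and input reads, the fold (a ratio of ChIP to input), its p-value and a false discovery rate. Per library, 1 factor turned the ratio of counts into the fold (relative tolerance 1e-05). The deposited peak lists hold a score from the authors' caller, per library. The authors' deposited interval table holds a mean signal, a log2 fold change with its error, a test score and adjusted p-values.

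Features on chromosomes 1 to 22 and X were merged across lists, and a region was listed in a library where 1 bp overlapped. Positions count from 1. The deposited intervals lie on a 20 kb grid; for counts by sign, 1 step was added to the printed end. The code was checked on simulated lists (Python 3.11.15, pandas 2.3.3, numpy 2.4.6, scipy 1.17.1). The members, window, motifs and thresholds (10 kb, 5%, 2%) were chosen with earlier results of these data known. The members were named first, then the island with the most ChIP reads of each library and the window's peaks; the choice among single sites was made after their values were seen. Neighbouring genes, pathway genes and cell type markers were not placed or checked, for lack of an hg19 annotation and of expression values.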

Additional observations from a re-analysis of the deposited data

How the results depend on the processing

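Covered share in H3K9me3 islands kept its direction and size under each alternative: islands with a false discovery rate below 0.01, islands with at least 50% of their length in the window, a window widened by 50 kb on each side, and leaving out each library. The ratios below are log2. With the widened window, ChIP over input moved to -0.78 for resistant over parental cells (-0.89 as reported) and to -0.20 for shp150_AP1 over vector_NT cells (-0.28), and input density for shp150_AP1 over vector_NT cells moved to 0.057 (0.36 as reported). Scaled by chromosome 9 islands the last was 0.43. Differences in ATAC-seq peak number were unstable. With lists of equal length, resistant minus parental 451Lu was -5 (-0.5 as reported), shp150_AP1 minus vector_NT was -1.5 (1 as reported) and shp150 minus NT was 0.5 (-3 as reported). Leaving out 1 library gave -3 to 2 for 451Lu and -0.5 to 3.5 for WM983B (1.5 as reported); the first was positive without parental replicate 2 or without resistant replicate 1, and the second negative without resistant replicate 1. For H3K27ac, peaks with a score of at least 5 and lists of equal length each gave 1 for 451Lu (2 as reported) and 0 for WM983B (-3 as reported). The cause of these shifts was not tested. Of 81 values recomputed, 67 did not turn to the opposite sign and stayed within the spread between replicates or, for H3K27ac counts, within 1.5 times. Another 5 turned to the opposite sign, some of them within that spread, and 9 moved further without turning. No paired analysis was possible because no test was fitted to which a block could be added; counts within replicate number are in the report for WM983B. Leaving out resistant replicate 2 or shp150_AP1 replicate 1 gives no ratio, since the remaining library lists no island in the window. Island counts limit the input values, and the depth of the peak lists is unknown.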
